A study of Mus musculus with 6 samples.

Results

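The genes described here are 9 markers of macrophages that live in skin, Mrc1, Lyve1, Folr2, Cd163, F13a1, Stab1, Selenop, Cbr2 and Adgre1, read by gene symbol from a matrix of 15168 genes. All 9 were found there and all 9 passed the filter on low counts, which left 11878 genes to test. The samples were macrophages from healing dorsal skin of female wild-type C57BL6/J mice, 3 samples from young mice (12 weeks) and 3 from aged mice (24 months). Every mouse had received 2 full-thickness wounds of 10 mm on the back, and cells were taken on Day 3 after wounding, so no group of unwounded skin enters the comparison. Live cells positive for CD45, CD11b, F4/80 and CD64 were sorted without exclusion of Ly6G+ cells, and cDNA was amplified with the SMART-Seq v4 kit before sequencing. The labels do not say whether a sample is 1 mouse or a pool, and they name a pair of animal facilities without assigning samples to them, so the p-values below measure only the spread between these samples. Samples carry the letters A, B and C in each age group.

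Skin macrophages comprise cells that settled in the dermis before injury, many of them close to vessels and nerves, and cells derived from blood monocytes that enter a wound within days. The resident cells take up debris and plasma proteins through scavenger and lectin receptors, and the markers described here include several of those receptors together with secreted proteins and enzymes that the same cells make. Monocyte-derived macrophages can acquire several of these markers with time in the tissue, so none of them is a lineage label by itself. In sorted bulk samples, fewer cells of a type and less RNA per cell cannot be told apart.

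Library totals lay between 15270103 and 17927483 counts. With each total multiplied by its TMM scaling factor, 1 count was worth 0.0553 to 0.0701 CPM, the unit of all levels below. Transcripts of the sorted proteins were abundant in every sample. Fcgr1, which encodes CD64, lay between 422 and 514 CPM (adjusted p = 0.520), and Ptprc, the gene of CD45, between 190 and 308 CPM (adjusted p = 0.386). Itgam, the gene of CD11b, was 0.99 higher on the log2 scale in aged samples (adjusted p = 0.00735). These and all adjusted p-values below come from the quasi-likelihood test of edgeR, adjusted by the Benjamini-Hochberg method over all tested genes. Aged A lay over 2-fold below every other sample for 170 tested genes (1.43%), young B for 112 (0.943%), aged C for 73 (0.615%) and aged B for 63 (0.53%). Aged B held 1259 counts of the keratinocyte gene Krt14, against 11 and 14 in aged A and C and at most 3 in any young sample, and it had the highest level of all 9 markers among the aged samples. Each marker is therefore also given without aged B, and without other samples where that changed a call or moved a value by over 1.5 times. Leaving out the sample with the highest aged level lowers the aged mean of every marker by construction, so values without aged B describe its weight and support no fall.

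Aged wound macrophages held less Cbr2 and Adgre1 transcript than young ones, while the other 7 markers did not pass the test. Of the 9, 2 fell and 0 rose at an adjusted p below 0.05 in edgeR's quasi-likelihood test, where 7.97% of all tested genes fell and 9.73% rose (17.7% either way). At an unadjusted p below 0.05, 4 were lower and 2 were higher in the aged samples (16.5% and 18.1% of all tested genes), and DESeq2 called 4 lower and 1 higher (9.16% and 12.4% of the genes it tested). The median log2 difference of the 9 (aged against young) was -0.32, beside -0.02 for all tested genes, with 6 below 0 and 3 above. Without aged B, aged A, young B, young C or aged C, falls over all tested genes dropped from 947 to 608, 522, 330, 67 and 194. Without aged A, 863 genes rose in place of 1156. Of the 9 markers, leaving out 1 sample gave 4 lower and 0 higher without aged B, and 0 lower and 2 higher without aged A. It gave 0 lower without young B, young C or aged C. The medians of the 9 ran from -0.55 to -0.11. The markers therefore did not share one direction, and they are described by what their proteins do.

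**Figure D1:**
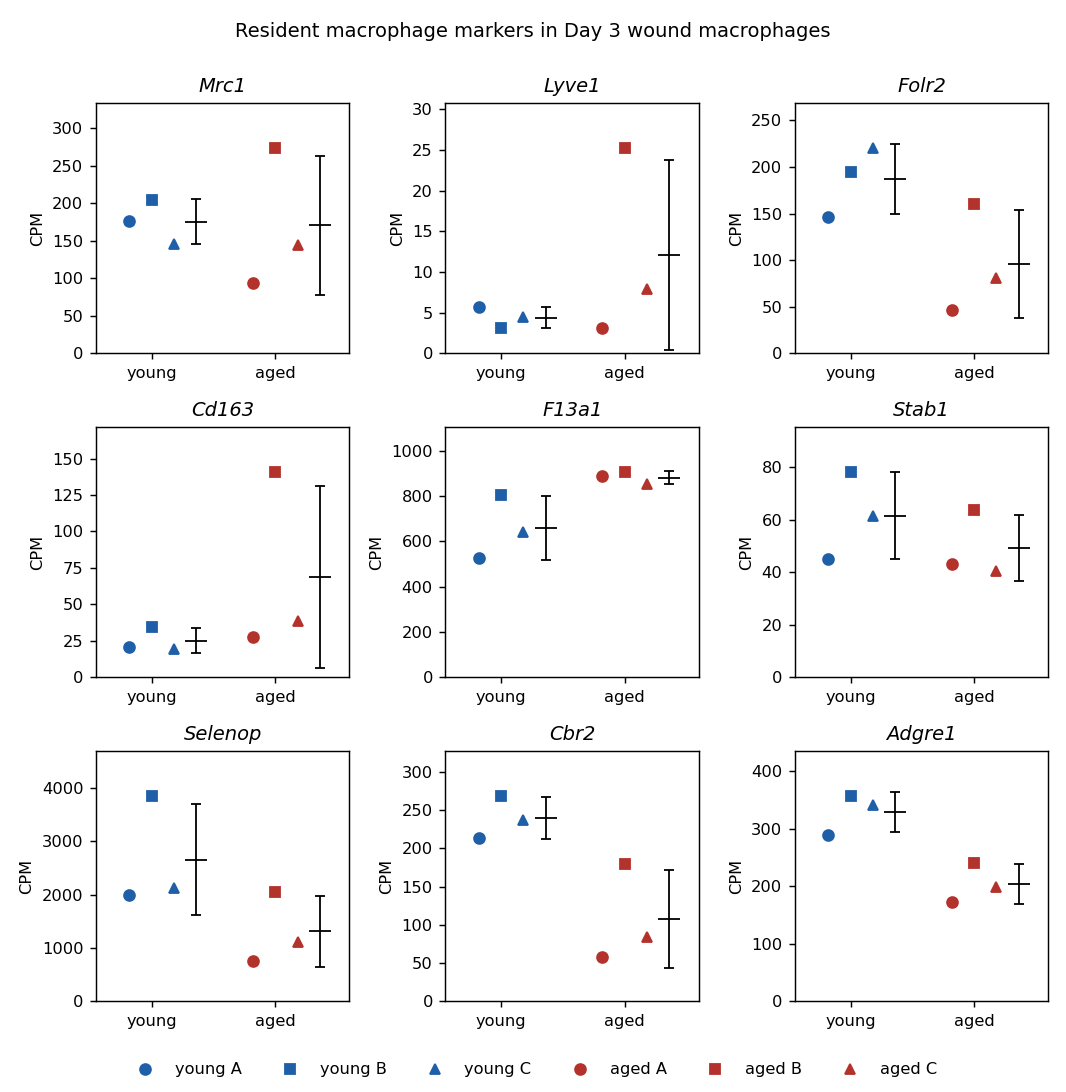
Level of each marker in CPM (y axis, from 0) in the 3 young (blue) and 3 aged (red) samples, with the letter of the sample given by the symbol and the mean and SD of each group beside the points. All aged samples lie below all young samples for Cbr2 and Adgre1 and above them for F13a1, and aged B (square) is the highest aged point in all 9 panels.

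Adgre1 (chr17:57358691-57483527, plus strand, GRCm38) encodes F4/80, an adhesion G protein-coupled receptor and one of the proteins on which the cells were sorted. Its level was 290 (A), 357 (B) and 341 (C) CPM in the young samples and 172 (A), 241 (B) and 199 (C) CPM in the aged samples. Every aged sample lay below every young one, which held for 19.0% of all tested genes. The mean was 329 ± 35.3 CPM in young and 204 ± 34.8 CPM in aged ones (SD, n = 3 each), a log2 fold change of -0.69 (SE 0.18, 95% interval -1.09 to -0.29) with an adjusted p of 0.0293 in edgeR's quasi-likelihood test. Without aged B the log2 fold change was -0.82 (adjusted p = 0.0275). The fall kept its direction whichever sample was left out, with a log2 fold change of -0.82 to -0.58. The adjusted p then ran from 0.0179 to 0.113 and passed in 2 of 6 cases, failing without young B, young C, aged A or aged C. Since F4/80 protein was part of the gate, Adgre1 is not independent of how the cells were chosen.

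Cbr2 (chr11:120729489-120732114, minus strand) encodes carbonyl reductase 2, an NADPH-dependent enzyme that reduces reactive carbonyl compounds. It was measured at 213 (A), 269 (B) and 237 (C) CPM in young macrophages and at 58.4 (A), 180 (B) and 84.1 (C) CPM in aged ones. The groups did not overlap, although aged B came close to young A while aged A and C lay far below. The mean fell from 239 ± 27.8 to 107 ± 64.1 CPM (SD, n = 3 each), a 2.23-fold difference (log2 fold change -1.16, SE 0.34, adjusted p = 0.0428, edgeR quasi-likelihood). Cbr2 was the only marker to pass both the adjusted p and a 2-fold change, as did 4.20% of tested genes in the lower direction and 8.79% in either. Without aged B the log2 fold change was -1.74 (adjusted p = 0.00273), and with 1 sample left out in turn the adjusted p ran from 0.00273 to 0.147 and passed in 2 of 6 cases, failing without young B, young C, aged A or aged C.

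Folr2 (chr7:101839988-101857194, minus strand) encodes folate receptor beta, a surface protein that binds folate and marks resident macrophages in many tissues. It reached 147 (A), 195 (B) and 220.3 (C) CPM in young and 46.4 (A), 159.9 (B) and 80.9 (C) CPM in aged ones. Aged A and C lay below all young samples and aged B lay between young A and B, so the groups overlapped through that sample alone. The means were 187 ± 37.3 and 95.8 ± 58.2 CPM (SD, n = 3 each), and the log2 fold change of -0.97 (SE 0.37) did not pass (adjusted p = 0.0897, edgeR quasi-likelihood), but passed in DESeq2 (adjusted p = 0.0297) and limma-voom (0.0121). Without aged B it was -1.54 and passed (adjusted p = 0.00877), and without aged A it was -0.63 and did not (adjusted p = 0.169).

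Selenop (chr15:3268547-3280508, plus strand) encodes selenoprotein P, a secreted protein that carries selenium between cells, and had the highest level per kilobase of transcript of the 9 in every sample. Young macrophages held 1990.1 (A), 3855 (B) and 2129 (C) CPM, and aged macrophages 753 (A), 2057 (B) and 1120 (C) CPM. As for Folr2, aged A and C lay below every young sample while aged B was above young A. The log2 fold change of -1.02 (SE 0.37, 95% interval -1.84 to -0.21) had an adjusted p of 0.0779, while DESeq2 (adjusted p = 0.0170) and limma-voom (0.0266) called it. Without aged B it was -1.50 with an adjusted p of 0.0185 (edgeR quasi-likelihood). Without young B it was -0.65 (adjusted p = 0.277), and without aged A -0.74 (adjusted p = 0.176).

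Mrc1 (chr2:14229392-14332057, plus strand) encodes the mannose receptor CD206, a lectin that takes up mannosylated glycoproteins and collagen fragments. Its level was 177 (A), 205 (B) and 145 (C) CPM in young samples and 94.2 (A), 274 (B) and 144 (C) CPM in aged samples. Aged B was the highest and aged A the lowest of the 6, so the aged range enclosed the young one. The means of 175.6 ± 29.9 and 170.6 ± 92.6 CPM (SD, n = 3 each) gave a log2 fold change of -0.04 (SE 0.33, 95% interval -0.76 to 0.68, adjusted p = 0.944, edgeR quasi-likelihood), which leaves room for a change in either direction. Without aged B the difference was -0.55 on the log2 scale (adjusted p = 0.151), and without aged A it was 0.25 (adjusted p = 0.557). It was 0.09 without young B, 0.07 without aged C and -0.16 without young C, none of which passed.

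Cd163 (chr6:124304656-124330527, plus strand) encodes the scavenger receptor for complexes of haemoglobin with haptoglobin. Young macrophages held 20.6 (A), 34.8 (B) and 19.6 (C) CPM and aged macrophages 27.6 (A), 141 (B) and 38.8 (C) CPM. Aged B held 4.24 times the mean of aged A and C and 5.63 times the young mean, and aged A lay within the young range. The means were 25.0 ± 8.48 and 69.0 ± 62.3 CPM (SD, n = 3 each), a log2 fold change of 1.46 (SE 0.52, adjusted p = 0.0739, edgeR quasi-likelihood) that came to 0.42 (adjusted p = 0.341) without aged B and passed at 1.85 (adjusted p = 0.0315) without aged A.

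Lyve1 (chr7:110850607-110863239, minus strand) encodes a receptor for hyaluronan that is shared by lymphatic endothelium and by macrophages beside vessels. It was the scarcest marker, with 45 (aged A) to 396 (aged B) counts in a sample. Its level was 5.64 (A), 3.05 (B) and 4.49 (C) CPM in young and 3.15 (A), 25.2 (B) and 7.84 (C) CPM in aged ones. Aged A lay within the young range, aged C above it and aged B far above all others, at 8.00 times aged A. The log2 fold change of 1.46 (SE 0.60, adjusted p = 0.112) came to 0.34 (adjusted p = 0.617) without aged B in edgeR's quasi-likelihood test, and passed at 1.91 (adjusted p = 0.0282) without aged A. DESeq2 called it higher with all 6 samples (adjusted p = 0.0346) and limma-voom did not (0.153). Of the endothelial markers, Cdh5, Tek and Emcn were each below 1 CPM in every sample. Cdh5 reached 0.704 CPM (young B), Tek 0.701 CPM (aged B), Emcn 0.892 CPM (aged B) and Kdr 2.97 CPM (young C). Pecam1 and Pdpn, which macrophages also express, lay at 6.80 to 10.1 CPM in young and 24.4 to 28.3 CPM in aged samples (Pecam1) and at 95.0 to 123 and 119 to 151 CPM (Pdpn). Ccl21a, of the same list, was at most 1.42 CPM (aged C). The lymphatic markers Prox1 and Flt4 were not analysed here.

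Stab1 (chr14:31139013-31168641, minus strand) encodes stabilin 1, a scavenger receptor that clears matrix protein and modified lipoprotein. It lay at 44.97 (A), 78.1 (B) and 61.4 (C) CPM in young and at 43.3 (A), 63.6 (B) and 40.5 (C) CPM in aged macrophages. The ranges overlapped, with aged B above the middle young sample. The log2 fold change was -0.32 (SE 0.24, 95% interval -0.85 to 0.20, adjusted p = 0.362), and -0.54 without aged B (adjusted p = 0.160, edgeR quasi-likelihood). It was -0.51 without young A, -0.11 without young B and -0.20 without aged C, none of which passed.

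F13a1 (chr13:36867178-37050244, minus strand) encodes the A subunit of coagulation factor XIII, a transglutaminase that cross-links fibrin, and was the marker that varied least among aged samples. Its level was 526 (A), 807 (B) and 642 (C) CPM in young and 888 (A), 907 (B) and 852 (C) CPM in aged macrophages. Every aged sample lay above every young one, which held for 19.2% of tested genes. The means of 659 ± 141 and 882 ± 27.7 CPM (SD, n = 3 each) gave a log2 fold change of 0.42 (SE 0.19, adjusted p = 0.145), with a similar 0.41 (adjusted p = 0.227) without aged B, and neither passed in edgeR's quasi-likelihood test. An exact permutation test of 3 against 3 samples cannot go below p = 0.1, so the separation of the groups has no smaller p.

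**Figure D2:**
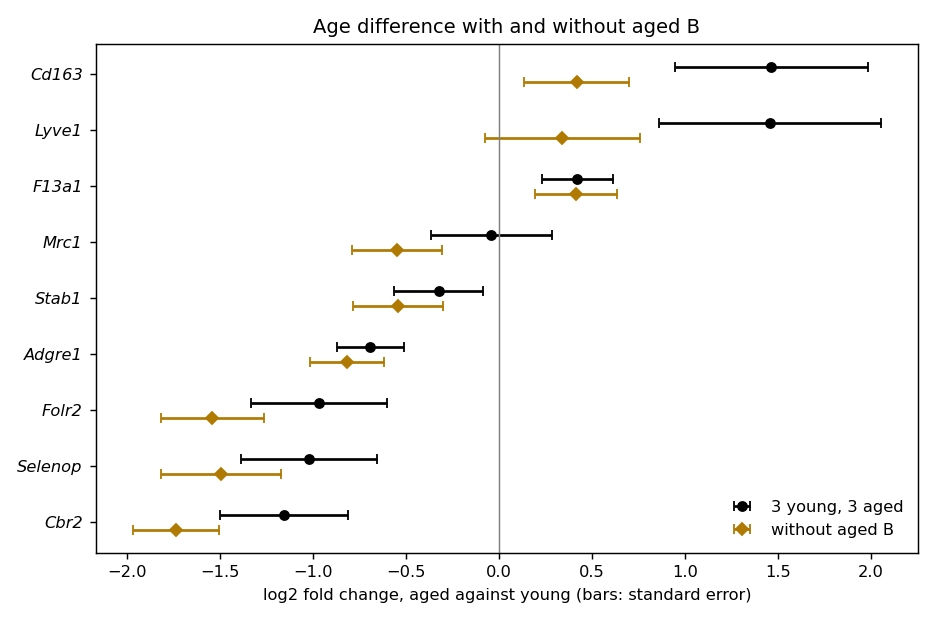
Log2 fold change of each marker, aged against young, with its standard error (x axis), from all 6 samples (black circles) and without aged B (ochre diamonds). Leaving out aged B moves Folr2 from -0.97 to -1.54 and Cd163 from 1.46 to 0.42, and moves F13a1 from 0.42 to 0.41.

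The aged samples differed among themselves more than the young ones for most of the markers. The highest aged level was 8.00 times the lowest for Lyve1, 5.10 times for Cd163, 3.44 times for Folr2, 3.08 times for Cbr2, 2.90 times for Mrc1 and 2.73 times for Selenop. For Stab1, Adgre1 and F13a1 it was 1.57, 1.40 and 1.06 times. Among the young samples the same quantity ran only from 1.23 times (Adgre1) to 1.94 times (Selenop). Aged B was the highest aged sample for all 9 markers, as it was for 35.5% of tested genes, and the highest of all 6 samples for 4 of them (Mrc1, Lyve1, Cd163 and F13a1), as for 17.3% of tested genes. Aged A was the lowest for 7 of 9, as for 37.1% of tested genes. The markers thus shared an order among the aged samples as well as, for some, a difference from the young. With aged B set aside, aged A and C both lay below all young samples for 6 of 9 markers (24.6% of tested genes). They lay above them for F13a1 alone (23.8% of tested genes). Aged B was already known to be the highest aged sample for every marker, so these shares are no like comparison and support no fall. For Mrc1 (aged C 144.0, young C 145.2 CPM) and Stab1 (aged A 43.3, young A 44.97 CPM) the gap was narrow.

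Ordered by level per kilobase of transcript, which allows genes of different length to be compared, Selenop stood first in both groups, with mean levels of 1275 CPM per kb in young and 628 CPM per kb in aged samples. In young macrophages Cbr2 (216 CPM per kb), F13a1 (167 CPM per kb) and Folr2 (155.5 CPM per kb) followed. The ranges of F13a1 and Folr2 overlapped each other, and that of F13a1 also overlapped that of Cbr2. Adgre1 (101.7 CPM per kb) and Mrc1 (32.7 CPM per kb) came next, and Stab1 (7.69 CPM per kb) and Cd163 (5.63 CPM per kb), whose ranges overlapped, stood above Lyve1 (1.52 CPM per kb). In aged macrophages F13a1 (223 CPM per kb) took the second place, above the whole range of Cbr2 (52.6 to 162 CPM per kb), and the mean of Cd163 (15.5 CPM per kb) was above that of Stab1 (6.14 CPM per kb), with overlapping ranges.

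Because library scaling cancels in a ratio of 2 genes within a sample, the markers were also compared with each other in that way. The ratio of Folr2 to Cbr2 (both in CPM per kb) was 0.635, 0.668 and 0.857 in young A, B and C and 0.733, 0.819 and 0.887 in aged A, B and C. That of Selenop to Cbr2 was 4.97, 7.64 and 4.78 in young and 6.86, 6.09 and 7.09 in aged samples. The ratio of Folr2 to Selenop was 0.128, 0.0874 and 0.179 in young and 0.107, 0.135 and 0.125 in aged samples. All 3 ratios overlapped between the ages, while the level of Cbr2 itself spanned 58.4 to 269 CPM.

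Most of the other markers stood higher relative to Cbr2 in aged than in young samples. The ratio of Mrc1 to Cbr2 was 0.171, 0.158 and 0.127 in young and 0.333, 0.314 and 0.354 in aged samples, and that of Cd163 to Cbr2 was 0.0242, 0.0324 and 0.0207 against 0.118, 0.195 and 0.115. The ratio of F13a1 to Cbr2 was 0.694, 0.845 and 0.761 in young and 4.27, 1.42 and 2.85 in aged samples. Mrc1, Lyve1, Cd163, F13a1 and Stab1 were each higher relative to Cbr2, and also relative to Selenop, in every aged sample than in any young one. Cbr2 and Selenop had the lowest log2 fold changes of the markers (-1.16 and -1.02). Ratios to them therefore tend to be higher in aged samples by construction, for any marker that fell less or rose. For F13a1 over Cbr2 the separation was fixed by the levels. All aged samples lay above all young ones for F13a1 and below them for Cbr2. Higher ratios to Cbr2 or Selenop thus support no rise of the other markers. Of the 36 pairs of markers, 20 (55.6%) had ratios that did not overlap between the ages, beside 32.4% of 106821 pairs of a marker with another tested gene. These ratios were examined after the levels were seen, pairs share genes, and no test was made of them.

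**Figure D3:**
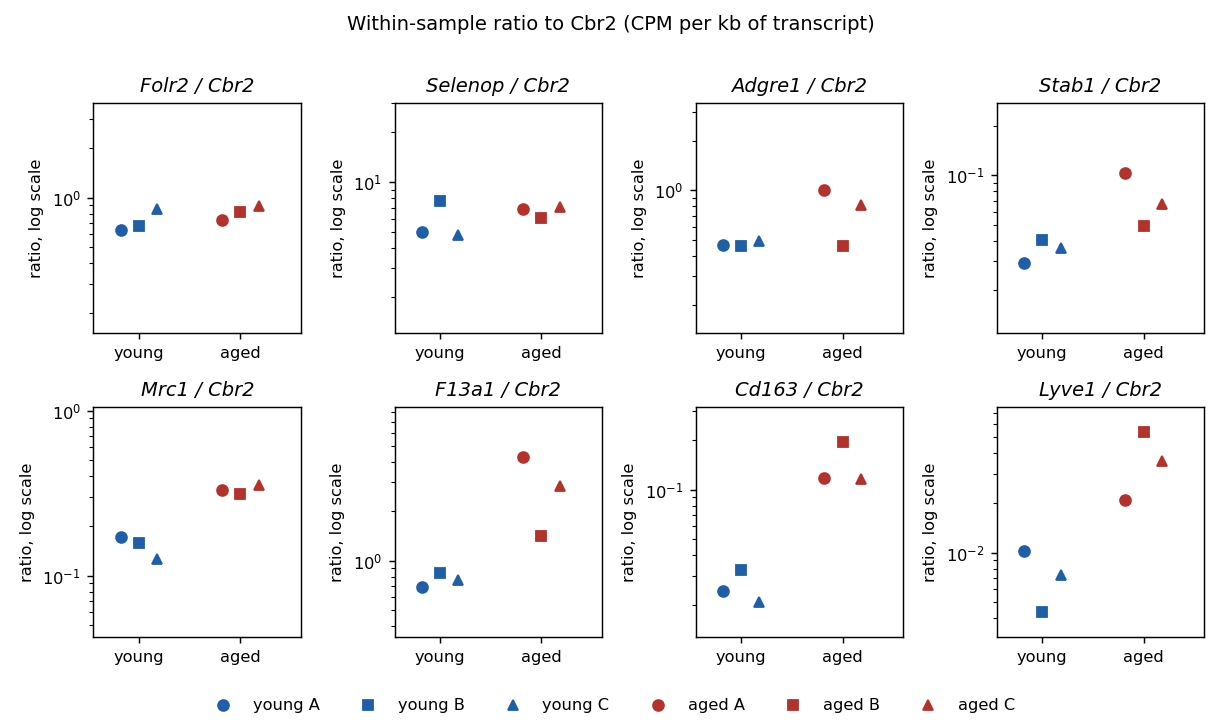
Ratio of each of the other 8 markers to Cbr2 within a sample (log axis, both genes in CPM per kb), for young (blue) and aged (red) samples, with the letter of the sample given by the symbol. The ratios of Folr2, Selenop and Adgre1 overlap between the ages, and those of Stab1, Mrc1, F13a1, Cd163 and Lyve1 lie higher in all aged samples.

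The promoters of Folr2 and Cbr2, whose ratio overlapped between the ages, and of Cd163, whose ratio to both did not overlap between the ages, are shown to set their sequence beside these values. RefSeq promoter windows (GRCm38.p6, 250 bases before to 50 bases after the start) were matched for 7 of 9 markers, without Lyve1 and Adgre1, and where a gene had several windows (Folr2, F13a1 and Selenop) the one nearest to its 5′ end in the matrix was taken. The start site of the Selenop window lies 2220 bases from that end, so its match may lie outside the promoter of the measured gene. Capitals mark TGCTGA (reverse strand TCAGCA), the core of sites for MAF factors, and GAGGAA (reverse strand TTCCTC), a core of sites for PU.1, the ETS factor that macrophages depend on. Each window is written 5′ to 3′ on the strand of its gene: Folr2 at chr7:101857141-101857440 (minus), Cbr2 at chr11:120731972-120732271 (minus) and Cd163 at chr6:124304401-124304700 (plus).
Folr2: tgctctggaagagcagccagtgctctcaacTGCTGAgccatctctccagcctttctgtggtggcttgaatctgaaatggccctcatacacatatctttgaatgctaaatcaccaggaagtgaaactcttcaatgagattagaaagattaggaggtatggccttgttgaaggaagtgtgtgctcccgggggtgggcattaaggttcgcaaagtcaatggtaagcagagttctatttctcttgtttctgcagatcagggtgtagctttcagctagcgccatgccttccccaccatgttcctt
Cbr2: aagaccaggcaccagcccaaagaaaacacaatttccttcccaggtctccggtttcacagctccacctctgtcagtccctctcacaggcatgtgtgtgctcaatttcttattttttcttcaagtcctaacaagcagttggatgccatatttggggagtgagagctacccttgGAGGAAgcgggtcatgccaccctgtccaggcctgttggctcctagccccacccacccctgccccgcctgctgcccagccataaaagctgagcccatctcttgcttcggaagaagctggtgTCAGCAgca
Cd163: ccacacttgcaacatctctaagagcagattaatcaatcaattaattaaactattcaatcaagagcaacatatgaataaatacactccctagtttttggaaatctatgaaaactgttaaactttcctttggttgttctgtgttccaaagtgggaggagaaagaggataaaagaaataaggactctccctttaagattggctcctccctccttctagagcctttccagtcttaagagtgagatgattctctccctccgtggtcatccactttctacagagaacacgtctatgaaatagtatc
TGCTGA was found in the windows of Folr2, Cbr2 and Stab1, 3 of 7, against 19.5% of 32851 mouse promoter windows of this length. GAGGAA was found in those of Mrc1, F13a1, Stab1, Selenop and Cbr2, 5 of 7, against 28.3%. The window of Cd163 held neither in these letters. The TGCTGA matches did not go with the ratios throughout. Stab1 held the motif although its ratio to Cbr2 did not overlap between the ages. Selenop lacked it although its ratio to Cbr2 overlapped. The motifs were picked after the levels were seen, and a match describes the sequence and no binding.

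With all 6 samples, more of the other genes known from resident macrophages fell than rose in the aged group. The counts of calls depended on single samples, while the median log2 fold change stayed negative whichever sample was left out. Of 35 such genes 33 were tested, and 12 fell (36.4%) and 4 rose (12.1%) at an adjusted p below 0.05, beside 7.97% and 9.73% of all tested genes, and their median log2 fold change was -0.48. The largest falls were of Fcrls, an Fc receptor-like gene of resident macrophages and microglia (-2.27, SE 0.44, adjusted p = 0.0120), Cx3cr1, the receptor for fractalkine (-1.87, adjusted p = 0.0155), the growth factor gene Igf1 (-1.67, adjusted p = 0.0301) and Fxyd2, a regulator of the sodium pump (-1.47, adjusted p = 0.0259, edgeR quasi-likelihood for all). Fcrls lay at 158, 149 and 85.6 CPM in young A, B and C and at 11.6, 48.6 and 21.5 CPM in aged A, B and C, so all aged samples were below all young ones and aged B was again the highest aged sample. Among the rises were those of Ltc4s, the synthase of leukotriene C4 (1.07, adjusted p = 0.0240), Ednrb, an endothelin receptor (mean 88.1 CPM in young and 176 CPM in aged ones, adjusted p = 0.0200) and Slc40a1, the iron exporter ferroportin (0.93, adjusted p = 0.0319). These 3 differ in function from the scavenging receptors.

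The complement genes C1qa, C1qb and C1qc, named after their values were seen, fell by 1.09, 1.04 and 0.92 on the log2 scale (adjusted p = 0.0130, 0.0123 and 0.0200, edgeR quasi-likelihood), and C1qb lay at 2872, 3058 and 2810 CPM in young and 1078, 1728 and 1435 CPM in aged ones. Csf1r, the receptor for the growth factor that macrophages need, did not pass (0.12, adjusted p = 0.667, edgeR quasi-likelihood), with 635 to 754 CPM in young and 713 to 868 CPM in aged ones. Timd4 and Vsig4, which mark resident macrophages of other organs, were at most 1.30 and 0.462 CPM in any sample and were not tested. Aged B was the highest aged sample for 25 of the 33 tested genes and aged A the lowest for 29. Without aged B, 13 fell and 1 rose, and the median was -0.83. Leaving out the highest aged sample lowers the aged mean of those 25 genes by construction. The calls were 1 fall and 1 rise without aged C, 2 and 0 without young C, and 4 and 3 without young B. They were 9 and 6 without aged A and 12 and 3 without young A. Over all tested genes, calls also dropped, from 947 falls and 1156 rises to 194 and 351 without aged C. They were 67 and 151 without young C and 330 and 435 without young B. Without aged B they were 608 and 894, without aged A 522 and 863, and without young A 1128 and 1574. The list median was -0.45 without aged C and -0.63 without young C, against -0.48 with all samples. It was below 0 in each of these fits and was -0.30 without aged A.

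**Figure D4:**
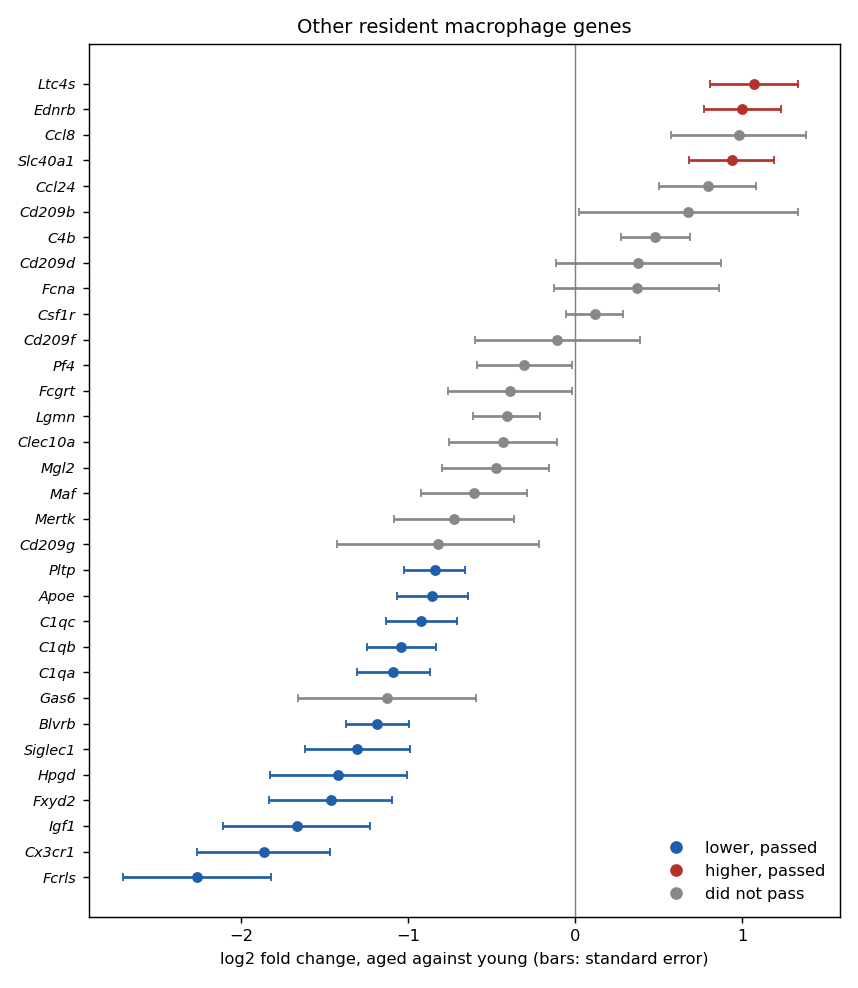
Log2 fold change, aged against young, with standard error (x axis) for 32 of the 33 tested genes of the resident macrophage list other than the markers themselves, with genes that passed at an adjusted p below 0.05 in blue (12 lower) or red (3 of the 4 higher) and the rest in grey. Fcrls lies lowest of those that passed, at -2.27, and Ltc4s is the highest of them, at 1.07.

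Among receptors and transcription factors that act upstream of these markers, none passed the test as lower in aged macrophages. Of 16 genes, all tested, 7 rose and 0 fell in edgeR's quasi-likelihood test (43.8% and 0%, beside 9.73% and 7.97% of all tested genes), with a median of 0.57 on the log2 scale. At an unadjusted p below 0.05, 10 were higher and 0 lower (all tested genes 18.1% and 16.5%), and DESeq2 called 9 higher and 0 lower (12.4% and 9.16%). The interleukin 13 and 4 receptor chains Il13ra1 (0.83, adjusted p = 0.0154) and Il4ra (0.76, adjusted p = 0.0272) and the glucocorticoid receptor gene Nr3c1 (0.72, adjusted p = 0.0142) rose. The transcription factor gene Maf did not pass (-0.61, adjusted p = 0.205). Leaving out 1 sample left 0 to 6 rises, 0 without young C or aged C and 3 without young B. The list median was 0.48 without young C and 0.56 without aged C. Rises over all tested genes dropped in those fits too, from 1156 to 151 and 351.

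Genes of recruited monocytes moved the opposite way from Cbr2 and Adgre1 in part of their list. Of 15 tested, 6 rose and 0 fell (40% and 0%, beside 9.73% and 7.97% of all tested genes), with a median of 0.94 on the log2 scale. At an unadjusted p below 0.05, 9 were higher and 1 lower (all tested genes 18.1% and 16.5%), and DESeq2 called 8 higher and 1 lower (12.4% and 9.16%). Vcan, which encodes the matrix proteoglycan versican (2.13, adjusted p = 0.00136), Thbs1, thrombospondin 1 (2.13, adjusted p = 0.0115), the hyaluronan receptor gene Cd44 (1.33, adjusted p = 0.00738) and F10, coagulation factor X (1.18, adjusted p = 0.0152), rose most in edgeR's quasi-likelihood test. The defining genes of classical monocytes did not pass. Ly6c2 lay at 120, 211 and 306 CPM in young and 248, 116 and 218 CPM in aged ones (-0.13, adjusted p = 0.818), and Ccr2, the receptor for CCL2, at 269, 511 and 288 CPM against 383, 225 and 345 CPM (-0.16, adjusted p = 0.706). Aged B, the highest aged sample for every resident marker, was the lowest of the aged samples for Ly6c2 and Ccr2 and for 11 of the 15 genes, beside 34.3% of all tested genes. The summed level of the list was 6068 to 10150 CPM in young and 21430 to 26750 CPM in aged ones, of which Thbs1 alone held 2011 to 6954 CPM and 15197 to 18894 CPM. Without Thbs1 it was 3192 to 5111 CPM in young and 6230 to 7852 CPM in aged samples. Leaving out 1 sample left 1 (without young C) to 7 rises (without aged B) and 4 without aged C, and without young A 1 gene fell. The median was 0.59 without aged A, 0.64 without young A and 1.005 without young C. Rises over all tested genes dropped from 1156 to 151 without young C. The part of such cells in the levels of the 9 markers was not tested.

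**Figure D5:**
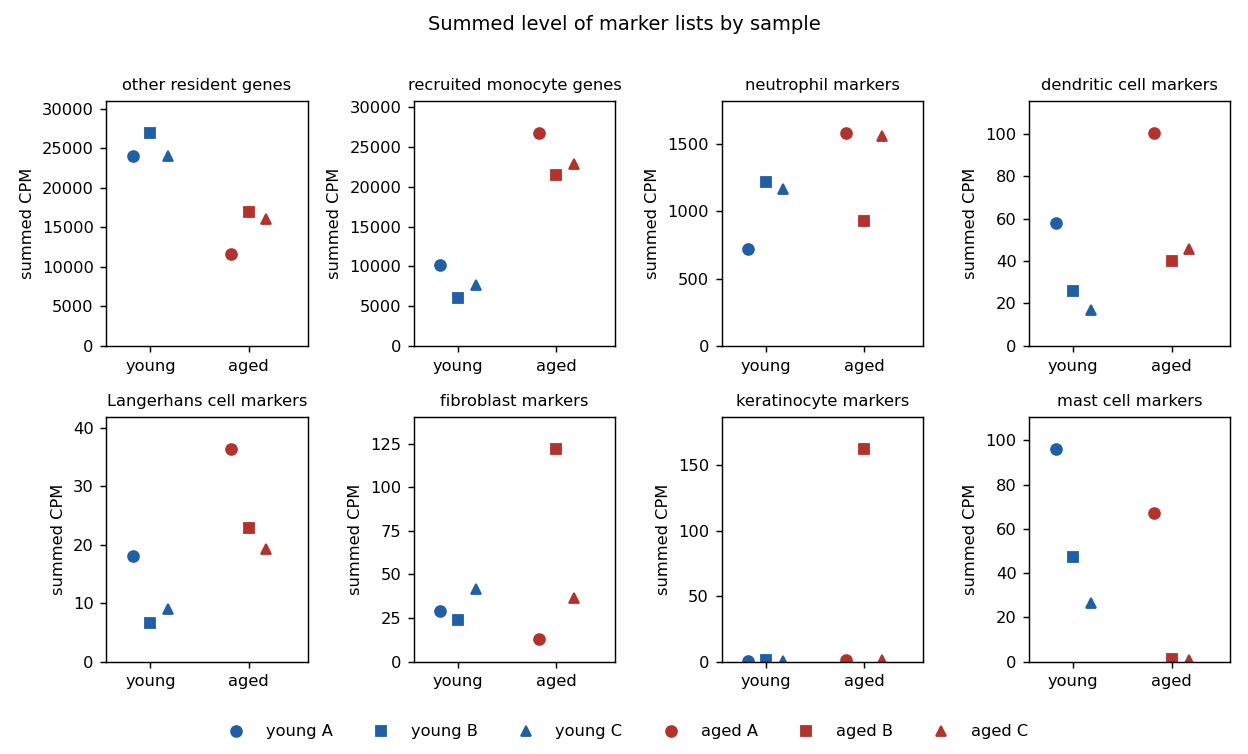
Summed CPM (y axis, from 0) of 8 marker lists in young (blue) and aged (red) samples, with the letter of the sample given by the symbol. The other resident genes sum to 11640 to 17000 CPM in aged samples, below the 23970 to 26940 CPM of young samples, and keratinocyte markers sum to 162.5 CPM in aged B against at most 1.30 CPM in any other sample.

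Markers of other cells also differed between samples, including those of fibroblasts and keratinocytes, which the gate on CD45 and CD11b is meant to remove. Fibroblast markers (6 of 8 tested, 0 passing in either direction, 0 at an unadjusted p below 0.05 and 0 in DESeq2) summed to 23.7 to 41.8 CPM in young samples and to 13.2, 122 and 36.4 CPM in aged A, B and C. The collagen gene Col3a1 reached 48.3 CPM in aged B and at most 14.3 CPM elsewhere. For all 6 tested fibroblast markers aged B was the highest and aged A the lowest aged sample, the same order as for 7 of the 9 resident markers. Of the keratinocyte markers 1 of 8 was tested, Krt14, and it passed in edgeR (adjusted p = 0.0259) and not in DESeq2, nor in edgeR without young B or young C. The median log2 fold change of the fibroblast markers was 0.79 with all samples, -0.31 without aged B and 1.25 without aged A, where 2 of them rose. Neutrophil markers (13 of 16 tested, 4 rose or 30.8% beside 9.73% of all tested genes, 0 fell, with 1 lower at an unadjusted p below 0.05 and 0 in DESeq2) summed to 717 to 1217 CPM in young and to 1584, 926 and 1560 CPM in aged A, B and C, aged B being the lowest aged sample for 12 of 13, and 0 (without young C) to 5 (without aged B) rose when 1 sample was left out, 1 without young A, aged A or aged C and 2 without young B. The median log2 fold change of the neutrophil markers was 0.38 with all samples. It was 0.23 (without young A) to 0.57 (without aged B) when 1 sample was left out. Ly6g itself lay between 6.14 and 10.9 CPM (adjusted p = 0.923, edgeR quasi-likelihood).

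Mast cell markers (6 of 6 tested, 0 passing, 0 at an unadjusted p below 0.05 and 0 in DESeq2, but 5 lower in limma-voom with sample weights and 5 lower in edgeR without aged A) summed to 26.5 to 96.3 CPM in young samples and to 67.2, 1.02 and 0.741 CPM in aged A, B and C. Cma1, Cpa3 and Mcpt4 had 0 counts in aged B and aged C, where 3 counts would be 0.191 and 0.185 CPM. Langerhans cell markers (4 of 6 tested, 2 rose or 50% beside 9.73% of all tested genes, 0 fell, with 3 higher and 0 lower at an unadjusted p below 0.05 and 2 and 0 in DESeq2) summed to 6.69 to 18.1 CPM in young and 19.3 to 36.4 CPM in aged ones, although Cd207, which encodes langerin and defines these cells, lay at 14.7, 1.06 and 6.14 CPM against 4.97, 3.89 and 1.98 CPM (log2 fold change -1.02, adjusted p = 0.321). In edgeR 3 genes of this list rose without young A or aged C and 4 without young B, where the filter on low counts can admit other genes of the list. Dendritic cell markers (6 of 8 tested, 0 passing, 2 higher at an unadjusted p below 0.05, 1 in DESeq2 and 2 in edgeR without young A) summed to 16.9 to 58.0 CPM in young and 39.9 to 100.4 CPM. Endothelial markers (3 of 12 tested, 1 rose, Pecam1, or 33.3% beside 9.73% of all tested genes) summed to 106 to 134 and 151 to 180 CPM. Most of these sums was Pdpn and Pecam1, which macrophages also express, and Kdr did not pass (adjusted p = 0.634, edgeR quasi-likelihood). The platelet list (1 of 7 tested, Ppbp, which rose, though not without young C) summed to 304 to 501 CPM in young samples. It summed to 891, 2738 and 1384 CPM in aged A, B and C. Nearly all of each sum was Ppbp alone, while the platelet integrin gene Itga2b was at most 0.763 CPM. The part of these cells in the levels of the 9 markers was not tested.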

How the data were processed

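Per the study's methods and the submitters' processing notes, the authors aligned paired reads with STAR 2.7.3a to mm10 and quantified transcripts in Partek Flow. The deposited matrix holds expected counts per gene, 15168 genes with a total of at least 10. Between 30.3% and 33.9% of values per sample were not whole (tolerance 1e-06), so expected counts were rounded, although a test on counts had been planned. Whether counting used strand is not given in the sources used here. A deposited table of rescaled values with the authors' fold changes and p-values was not used.

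Levels are CPM with TMM factors (edgeR 4.0.16, R 4.3.3). Genes kept by filterByExpr (11878) were tested by edgeR's quasi-likelihood test, 3 aged against 3 young samples without a block, with Benjamini-Hochberg adjustment over all tested genes and calls at 0.05. Fold changes are on the log2 scale of the fitted model. Levels per kb use the longest protein-coding GENCODE M21 transcript, and coordinates are those of the matrix on GRCm38. Alternatives were DESeq2 1.42.0, its size factors, other count filters, limma-voom 3.58.1 with sample weights, a block and leaving out each sample. The test was tested on simulated data. Outside the 9 markers, named genes were the sort markers, Ly6g, up to 4 passing genes with the largest rises and 4 with the largest falls of each list, and the most abundant gene of lists of other cell types; further genes named were chosen after their values were seen. The markers and lists were chosen with earlier results of these data known. Some genes that this rule names are not reported here.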

Additional observations from a re-analysis of the deposited data

How the results depend on the processing

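The set letter did not pair the samples, since deviations of same-lettered samples correlated at 0.181 (A), -0.02 (B) and 0.11 (C), and young B, young C and aged B matched best with another letter. With the letter as a replicate block, 4 markers were lower (Cbr2, Adgre1, Folr2 and Selenop) and 1 was higher (Cd163), and 1202 genes rose and 912 fell. DESeq2 called 4 markers lower (Folr2 at an adjusted p of 0.0297, Selenop at 0.0170) and 1 higher (Lyve1, 0.0346). limma-voom with sample weights called 4 markers lower, with 1933 genes higher and 1713 lower in place of 1156 and 947. Leaving out 1 sample gave 0 to 4 markers lower and 0 to 2 higher, 0 lower without young B, young C, aged A or aged C, 4 lower without aged B (Folr2 and Selenop joining), and 2 higher without aged A (Lyve1, adjusted p = 0.0282, and Cd163, 0.0315, edgeR quasi-likelihood). Over all genes these fits gave 151 to 1574 higher and 67 to 1128 lower, and 149 to 896 higher and 64 to 607 lower past 2-fold, fewest without young C. The log2 fold change of Mrc1 (-0.04) turned to 0.09 without young B, 0.25 without aged A and 0.07 without aged C, and ran from -0.55 to 0.25. The cause of these changes was not tested. Among 108 refits of single markers, the other 8 markers kept their direction, and Cbr2 and Adgre1 passed in 6 of 6 settings that used all samples. Depth was least for Lyve1, with 45 counts in aged A.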
